A study of Mus musculus with 4 samples.

Results

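The comparison described here sets the 2 derived libraries of the series against each other: mouse cells kept for 5 days without leukaemia inhibitory factor (LIF) and labelled embryoid body (the EB library), and cells kept for 2 days without it (the LIF library). Both derive from embryonic stem (ES) cells of strain 129S2/SvPas, which were grown with LIF on mitomycin C-treated embryonic fibroblasts of C57/BL6 mice. ES 1 and ES 2, the remaining libraries, give reference levels. RNA was measured as FPKM, a level scaled to gene length and to the mapped fragments of the library, from total RNA. Protein-coding genes at 1 FPKM or more in the EB or the LIF library were taken, which gave 12211 members among 21618 protein-coding genes and 47633 genes in all. Of these, 6738 lie outside every gene on the opposite strand (the strand-separate members) and 5473 overlap one (marked throughout as overlapping). The labels do not say whether fibroblasts were still present after LIF was removed, whether the EB library came from aggregates in suspension, or whether the ES libraries came from separate cultures. With 1 library a side there is no replicate check and no test, and differences are given by size only. Time without LIF, form of culture and library cannot be told apart, and neither can fewer cells of a type and less RNA per cell.

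ES cells are held undifferentiated by LIF, which acts through the receptor subunits Lifr and Il6st on the transcription factor STAT3. When LIF is removed, cells on a dish spread and form actin stress fibres, while cells in an embryoid body aggregate in 3 dimensions and later form the germ layers. Tension on the actin skeleton is read by 2 transcription systems: serum response factor (SRF) with its actin-sensing cofactors, which drives contractile genes, and YAP with TEAD factors, which drives genes of growth, adhesion and matrix. Feeder fibroblasts also use both.

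Library depth, estimated from the smallest steps in the values, was 18.1 M fragments for the LIF library and 26.4 M for the EB library, against 31.5 M and 26.4 M for ES 1 and ES 2. For a 1 kb gene, the floor of 3 fragments is 0.166 FPKM in the LIF library and 0.113 in the EB library, which covers counting error only. Nuclear protein-coding genes held 51.4% of the FPKM sum in the LIF library and 73.5% in the EB library, yet their sums were close, at 444389 and 436362. The median log2(FPKM + 1) difference, EB minus LIF, was -0.07 over all members and -0.05 over the strand-separate ones. Differences below are on this scale, which understates those of low genes, and a gene counts as past 2-fold at 1 or beyond.

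Over all 12211 members, 169 were at least 2-fold higher in the EB library (1.38%) and 609 at least 2-fold lower (4.99%), shares against which the counts of each gene list below are to be read. Of the 6738 strand-separate members, 122 were at least 2-fold higher in the EB library (1.81%) and 236 at least 2-fold lower (3.5%). The same rule applied to ES 2 against ES 1 gave 32 in either direction (0.475%), which is the only measure of spread between like samples in the series. Past 4-fold there were 21 higher and 39 lower members. Among the 236 lower members both ES libraries lay nearer the EB level in 141 and nearer the LIF level in 63, with the ES libraries on different sides in 32. Among the 122 higher members these numbers were 36, 61 and 25. Over all strand-separate members they were 3065, 2594 and 1079. So the lower genes were more often genes whose LIF level stood away from ES cells, and the higher genes more often ones whose EB level did. These counts describe genes picked for a wide gap and are no test.

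**Figure D1:**
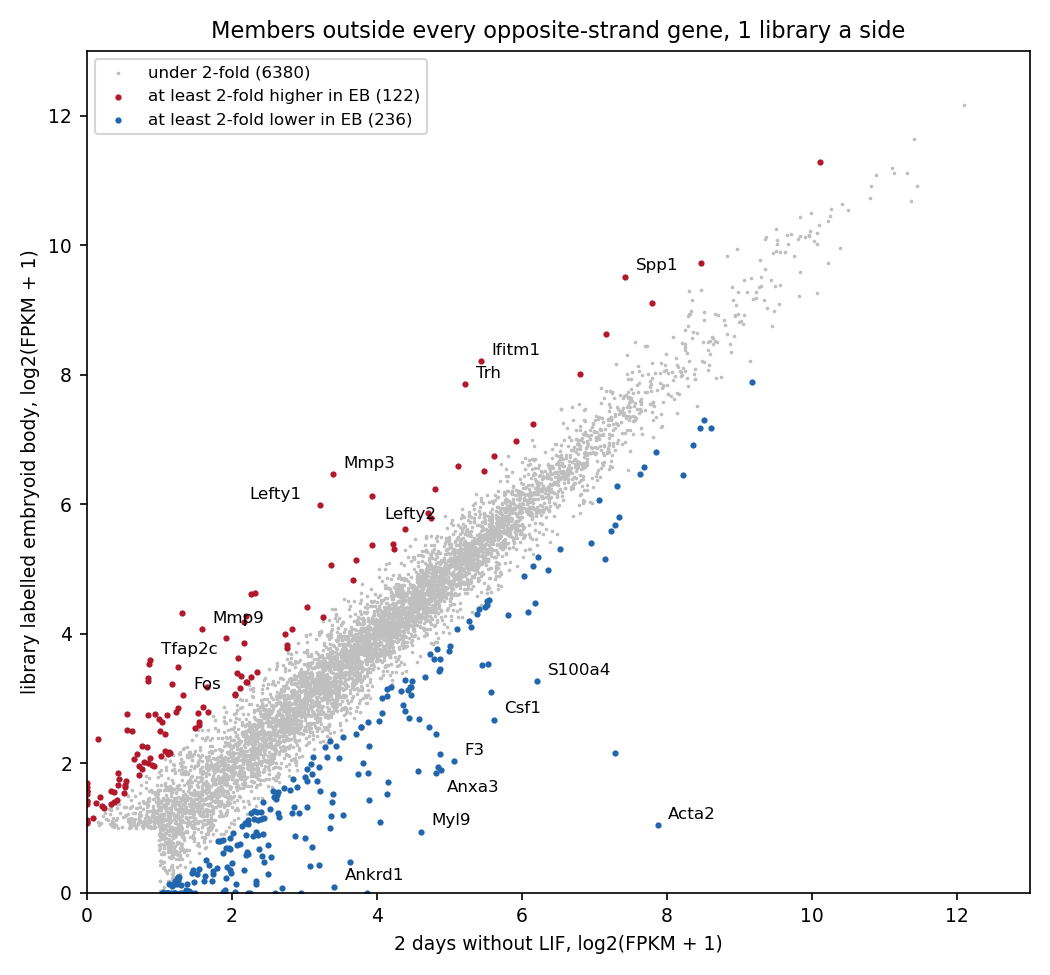
Each point is 1 of the 6738 members outside every opposite-strand gene, with its level in the LIF library on the x axis and in the EB library on the y axis, both as log2(FPKM + 1). Red points are at least 2-fold higher in the EB library (122) and blue points at least 2-fold lower (236). Acta2 lies farthest below the diagonal, and Mmp3 and Ifitm1 are among those farthest above it.

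Just past 2-fold, the collagen gene Col6a1 was at 3.13 FPKM in the LIF library and 7.27 in the EB library, and Ccdc181 at 9.18 and 4.08. Just short of it, the antiproliferative gene Btg1 was at 9.46 and 19.9 FPKM, and Aebp1 at 10.4 and 4.70.

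Genes of the contractile apparatus had the lowest median difference of the lists with at least 10 members. Acta2, the smooth muscle actin, was at 82.8 FPKM in ES 1, 88.7 in ES 2, 234 in the LIF library and 1.06 in the EB library. Its LIF level was thus above both ES libraries and its EB level far below both, a log2 difference of -6.83, or 221-fold between the derived libraries. At the estimated depth the EB value still corresponds to about 61.4 fragments, above the floor. Acta2 (ENSMUSG00000035783.8) lies on the minus strand at chr19:34241090-34255590 in mm10.

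Tagln, the actin-binding protein transgelin, had the same order: 52.4 and 56.6 FPKM in ES 1 and ES 2, 152 in the LIF library and 1.26 in the EB library (-6.08). It lies at chr9:45929619-45936058 on the minus strand, and exons of Pcsk7, on the other strand, overlie 67.9% of its exonic bases. Pcsk7 itself was between 3.72 and 4.41 FPKM in the 4 libraries, and its part in the Tagln values was not tested. Myl9, the regulatory light chain of smooth muscle myosin, was at 10.8 and 9.98 FPKM in ES cells, 23.4 in the LIF library and 0.925 in the EB library (-3.67). In all 3 genes the EB library was the lowest and the LIF library the highest of the 4.

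Of 22 contractile genes listed, 18 were members, and 10 of these were past 2-fold lower in the EB library and 0 higher, with a median difference of -1.22. Among strand-separate members 8 of 10 were lower. Caldesmon (Cald1, overlapping), which regulates actin-myosin contact, was at 84.7 FPKM in the LIF library and 20.6 in the EB library, and the tropomyosin gene Tpm1 at 150 and 46.8. Calponin 1 (Cnn1), a late smooth muscle marker, was low throughout, at 2.89 and 2.86 FPKM in ES cells, 4.76 in the LIF library and 1.44 in the EB library. Myh11, the smooth muscle myosin heavy chain that defines the mature cell, stayed under the filter at 0.695 and 0.126 FPKM. The group is therefore described by its genes and not as smooth muscle cells. Desmin (Des, overlapping) at 1.75 and 1.51 FPKM and Mcam (overlapping) at 33.4 and 34.5 FPKM were well short of 2-fold.

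The SRF system itself had smaller differences than the contractile genes. Srf (overlapping, as are the next 2 genes) was at 8.35 FPKM in the LIF library and 6.66 in the EB library, and its cofactor genes Mrtfa and Mrtfb at 12.7 and 12.8, and 16.7 and 15.1. Of 16 members of this list 4 were past 2-fold lower (Tgfb1i1 and the overlapping Fhl2, Zyx and Tpm4) and 0 higher. Zyx, a focal adhesion protein, was at 19.95 and 6.95 FPKM. The cytoplasmic actins had another pattern: Actg1 was at 1729 and 1802 FPKM in ES cells, 732 in the LIF library and 1081 in the EB library, so the LIF library was the lowest of the 4.

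YAP-TEAD target genes were also lower in large part. Ankrd1, a cardiac and stress-responsive ankyrin protein, was at 4.23 and 4.10 FPKM in ES 1 and ES 2, 9.64 in the LIF library and 0.0682 in the EB library (-3.32). Thrombospondin 1 (Thbs1, overlapping), a matrix glycoprotein, was at 248 FPKM in the LIF library and 11.9 in the EB library, with 68.3 and 72.5 in ES cells. Tissue factor (F3), the starter of blood clotting, was at 32.4 and 3.09 FPKM, and the annexin Anxa3 at 27.3 and 2.60. Of 22 members 11 were past 2-fold lower and 0 higher (7 of 14 strand-separate), and the median was -0.83. The matricellular genes Ccn1 and Ccn2 (the latter overlapping) were at 27.1 and 4.49, and 84.3 and 21.1 FPKM. Other targets hardly differed, such as Nuak2 at 1.91 and 1.82 FPKM, so the difference was not shared by the whole list. Among the 14 genes of the YAP-TEAD factors and their upstream kinases, 1 was past 2-fold: Tead3 at 3.05 and 0.901 FPKM.

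**Figure D2:**
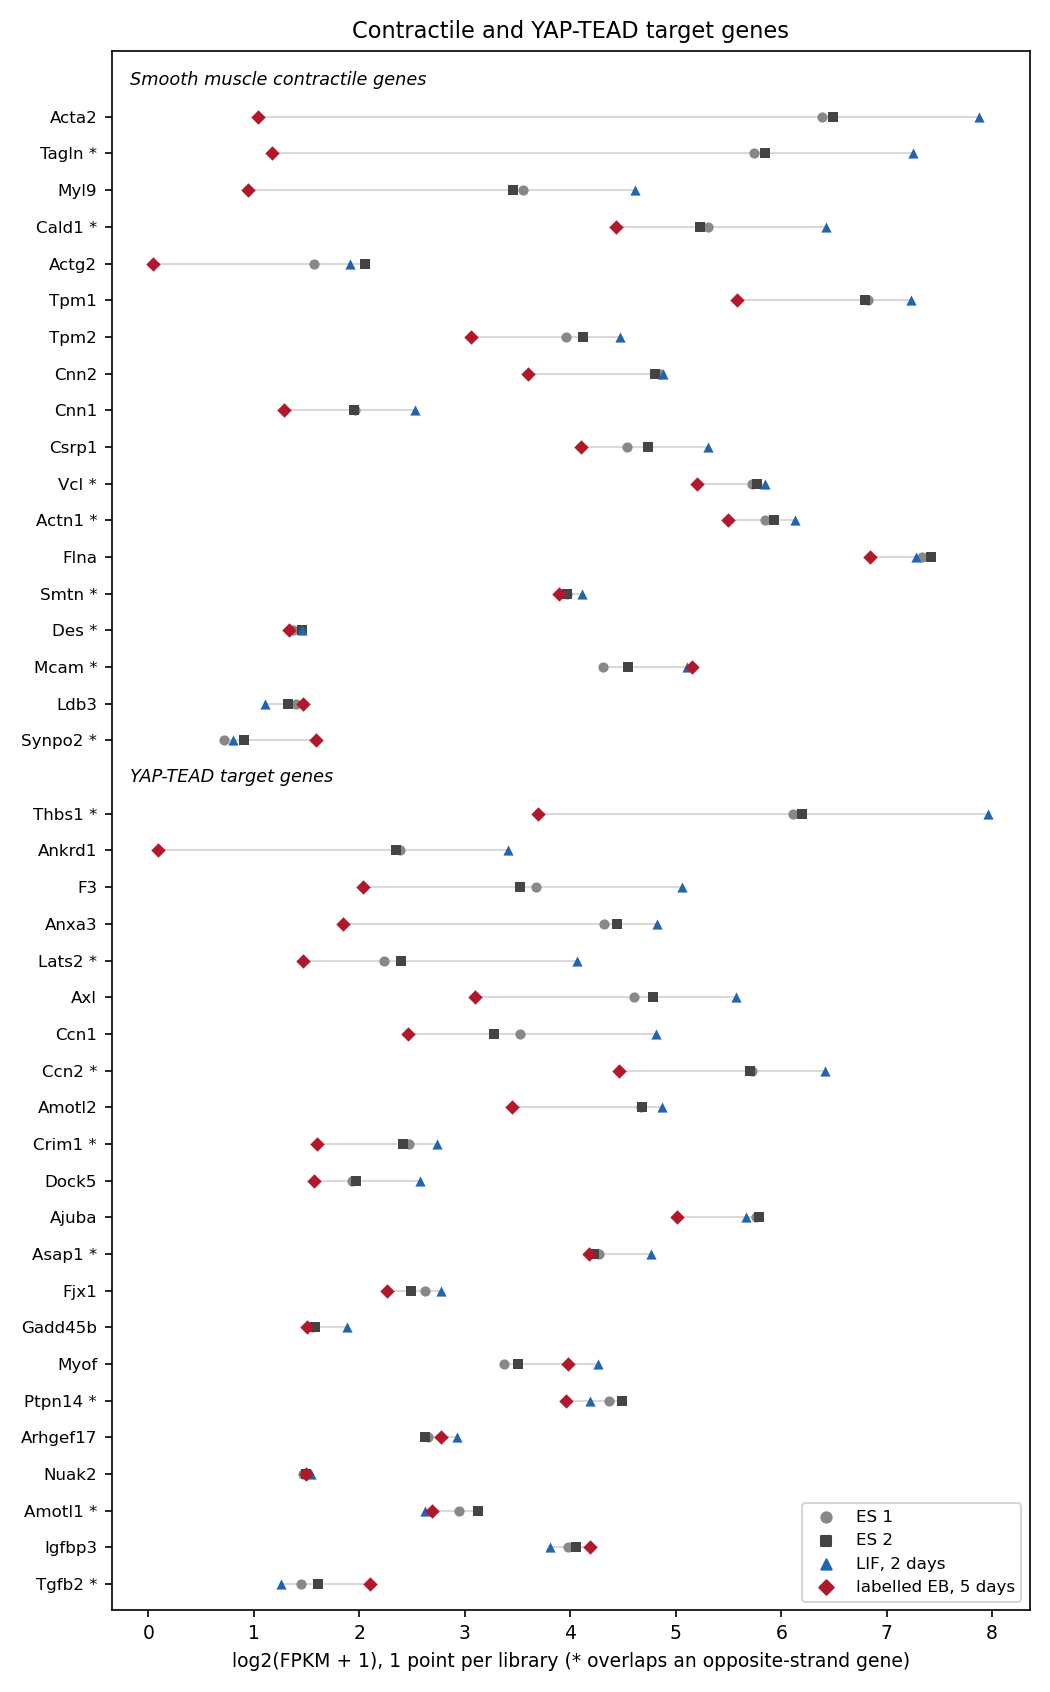
Levels of the 18 contractile members and 22 YAP-TEAD target members in the 4 libraries as log2(FPKM + 1), 1 point per library and ordered within each list by the EB minus LIF difference. The EB library (red) is the lowest of the 4 in every gene here past 2-fold lower, and the LIF library (blue) is the highest in each of them except Actg2.

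Promoter letters are shown for 2 contractile genes with the CArG box of SRF (Myl9 and Cnn2), 2 YAP-TEAD targets with the TEAD letters GGAATG (Ccn1 and Axl), and Mmp3, a gene that was higher, with TGANTCA, the letters bound by the AP-1 factor. The Axl receptor gene was at 46.6 FPKM in the LIF library and 7.53 in the EB library, and Cnn2 at 28.4 and 11.1. Each stretch holds up to 250 bases before the RefSeq transcription start on GRCm38.p6 (mm10), 5′ to 3′ on the gene's strand, ended where the first GENCODE exon begins. Acta2 and Ankrd1 are not shown. Capitals mark the motif, which in Ccn1 is on the other strand. The stretches are chr2:156775214-156775419 and chr10:79988350-79988583 on the plus strand, chr3:145649986-145650235 and chr7:25788734-25788983 on the minus strand, and chr9:7445572-7445821 on the plus strand.
Myl9: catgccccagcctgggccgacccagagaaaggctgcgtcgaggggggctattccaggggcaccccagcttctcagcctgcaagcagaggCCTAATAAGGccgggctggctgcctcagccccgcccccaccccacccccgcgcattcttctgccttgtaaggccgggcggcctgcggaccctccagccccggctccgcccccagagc
Cnn2: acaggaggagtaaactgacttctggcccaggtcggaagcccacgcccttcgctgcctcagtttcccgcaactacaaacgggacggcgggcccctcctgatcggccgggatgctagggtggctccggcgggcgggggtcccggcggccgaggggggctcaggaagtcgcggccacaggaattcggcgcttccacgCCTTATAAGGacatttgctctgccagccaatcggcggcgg
Ccn1: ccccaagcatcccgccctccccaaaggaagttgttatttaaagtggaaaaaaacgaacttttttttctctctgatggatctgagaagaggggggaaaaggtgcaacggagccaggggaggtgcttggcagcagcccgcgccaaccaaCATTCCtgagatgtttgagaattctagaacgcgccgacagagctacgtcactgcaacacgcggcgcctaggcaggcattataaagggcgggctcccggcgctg
Axl: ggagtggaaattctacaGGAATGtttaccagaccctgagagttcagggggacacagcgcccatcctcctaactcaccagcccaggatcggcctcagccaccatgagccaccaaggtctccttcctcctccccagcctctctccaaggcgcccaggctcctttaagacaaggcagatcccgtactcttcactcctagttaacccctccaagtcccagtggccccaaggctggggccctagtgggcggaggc
Mmp3: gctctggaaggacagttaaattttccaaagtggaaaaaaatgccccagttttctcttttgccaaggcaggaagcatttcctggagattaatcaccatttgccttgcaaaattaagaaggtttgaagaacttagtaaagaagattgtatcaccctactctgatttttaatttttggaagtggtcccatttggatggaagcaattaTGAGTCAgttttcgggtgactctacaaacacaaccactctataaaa

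Motif shares were counted over windows from 250 bases before to 50 after each start, on both strands, with a gene counted once over its windows. GGAATG was in 8 of 14 YAP-TEAD target members with a window (57.1%), in 6 of 16 contractile members (37.5%) and in 14.7% of all 32851 windows. The CArG box was in 4 of 16 contractile members and 0 of 14 YAP-TEAD targets, against 1.63% of all windows and 1.41% of strand-separate members. The shares of all windows count windows and not genes. Across all strand-separate members, GGAATG was in 23.7% of those lower in the EB library (37 of 156 with a window), 14.5% of those higher (11 of 76) and 13.3% of all. TGANTCA was in 10.9% of the lower members (17 of 156), 9.21% of the higher ones (7 of 76) and 5.80% of all. It was thus no more common in the higher members than in the lower ones. A match shows letters and not a bound site, and YAP-TEAD and SRF targets are partly known from such sites.

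Genes of matrix, adhesion and calcium binding were lower in the EB library in part. Lox (overlapping), which cross-links collagen, was at 40.7 and 1.201 FPKM in the LIF and EB libraries, and the hyaluronan receptor Cd44 (overlapping) at 77.1 and 6.06. Of 17 annexin and S100 members 7 were past 2-fold lower and 0 higher, with a median of -0.81. S100a4, a calcium-binding protein of motile and fibroblastic cells, was at 73.2 and 8.64 FPKM, and the large scaffold Ahnak at 45.2 and 10.5. Among 17 mesenchymal and adhesion members 8 were lower and 0 higher, among them the integrin subunit genes Itga3 and Itgb1 at 13.9 and 3.84, and 161 and 55.0 FPKM. Itga3 differed from the genes above in that its LIF level was below both ES libraries, at 16.2 and 16.9. Epithelial junction genes gave 0 past 2-fold among 17 members, with the cadherin gene Cdh1 at 68.6 and 61.0 FPKM.

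Secreted signals were lower in part. Csf1, the growth factor of macrophages, was at 13.9 and 14.6 FPKM in ES cells, 47.8 in the LIF library and 5.39 in the EB library (-2.93). Of 17 chemokine and cytokine members 6 were past 2-fold lower, including the interleukin 33 receptor gene Il1rl1 (13.6 and 2.61 FPKM) and Cxcl5 (2.99 and 0.235), and 1 was higher. Prl2c3 and Prl2c2, placental prolactin-family genes, were at 28.7 and 2.71, and 15.5 and 1.13 FPKM, against 0.607 to 1.25 and 0.0478 to 0.613 in ES cells. These copies are near-identical, so how reads divide between them is uncertain. Also among the strand-separate genes that the naming rule took were Zfp202, a zinc finger gene at 11.4 and 0.385 FPKM, and the olfactory receptor gene Olfr986. Olfr986 was at 13.5 FPKM in the LIF library and listed at 0 in both ES libraries and the EB library. Olfr986 (chr9:40180920-40190134) and Zfp202 (chr9:40192316-40213604) lie close together on the plus strand. Separate signals and a shared one across both cannot be told apart.

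Markers of feeder fibroblasts stood on both sides. Of 32 listed genes 29 were members, with 10 past 2-fold lower in the EB library and 4 higher, a median of -0.47. Their summed level was 842 FPKM in the LIF library and 520 in the EB library, and 525 and 521 in ES 1 and ES 2. Periostin (Postn) was at 22.7 and 2.66 FPKM in the LIF and EB libraries, Col5a2 at 28.4 and 3.44, and Col1a1 at 12.1 and 4.47. In the other direction, the collagen VI genes Col6a3, Col6a2 and Col6a1 were at 0.805, 0.999 and 3.13 FPKM in the LIF library and 8.68, 5.44 and 7.27 in the EB library, and decorin (Dcn) at 6.68 and 11.1. The surface marker Thy1 was at 7.38 and 5.72 FPKM. Fap, another fibroblast marker, was under the filter at 0.8002 and 0.0715 FPKM and listed at 0 in both ES libraries. The part of these markers, or of fibroblast content, in the contractile difference was not tested. Of 17 blood and macrophage genes 5 were members, with 2 past 2-fold lower and 0 higher. The lower ones were the macrophage markers Lyz2 at 1.36 and 0.100 FPKM and Csf1r (overlapping) at 1.61 and 0.0579. Both were listed at 0 in ES cells. Csf1r lies opposite Hmgxb3, at 12.1 to 14.4 FPKM in the 4 libraries, so its LIF level is uncertain. Cd14, under the filter, went the other way at 0.0778 and 0.208 FPKM.

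Among genes higher in the EB library, both LEFTY inhibitors of NODAL signalling were past 4-fold. NODAL is a ligand of the transforming growth factor family that specifies mesoderm and endoderm and is held in check by the LEFTY proteins, which are also its targets. Lefty1 was at 12.7 and 12.3 FPKM in ES 1 and ES 2, 8.34 in the LIF library and 62.1 in the EB library (2.76). Lefty2 was at 9.70, 8.79, 14.3 and 68.7 FPKM in the same order (2.19). Both were highest in the EB library, while the LIF library was lowest for Lefty1 and above ES cells for Lefty2. They lie close together on the plus strand of chromosome 1, at chr1:180935022-180938400 and chr1:180893108-180899103. No other of the 19 members of the NODAL pathway was past 2-fold: Nodal was at 9.26 and 13.4 FPKM, the coreceptor gene Tdgf1 at 377 and 269 and the feedback inhibitor Smad7 at 40.2 and 32.03. The list median was -0.06.

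Ifitm1, an interferon-induced membrane protein gene also known from early germ cells, was at 121 FPKM in ES 1, 116 in ES 2, 42.1 in the LIF library and 294 in the EB library (2.77). The LIF library was thus the lowest and the EB library the highest of the 4. It lies at chr7:140967221-140969825 on the plus strand. Its relatives Ifitm2 and Ifitm3 had smaller differences, at 110 and 186, and 31.5 and 51.1 FPKM. Of 21 interferon-response members 1 other was past 2-fold, Irf7 (overlapping), which was lower at 2.70 and 0.235 FPKM. In ES 1 and ES 2 Irf7 was at 0.155 and 0.266 FPKM. It lies opposite Phrf1, at 33.4 to 43.2 FPKM in the 4 libraries, so the Irf7 level in the LIF library is uncertain. Isg15 and Mx1, classic interferon targets, were listed at 0 in all 4 libraries. The median of the list was -0.14.

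Tfap2c, the AP-2γ transcription factor of germ cell precursors and trophoblast, was at 3.73 and 2.88 FPKM in ES 1 and ES 2, 0.836 in the LIF library and 11.1 in the EB library (2.72). It lies at chr2:172549593-172558622 on the plus strand. Prdm1, a repressor needed for germ cell fate, was at 3.20 and 9.50 FPKM in the LIF and EB libraries, and both were past 2-fold higher among 14 germ cell members, with 0 lower. Kit, the receptor of stem cell factor, at 15.3 and 28.5 FPKM, and Prdm14, at 5.54 and 8.82, stayed short of 2-fold. The later germ cell gene Ddx4 was at 5.53 and 4.74 FPKM. Of 11 trophoblast members 1 was past 2-fold higher, Tfap2c itself, and 3 were lower. Trophoblast genes under the filter stood on both sides. Cdx2 was at 0.205 and 0.0345 FPKM and Gata3 (overlapping) at 0.591 and 0.317. Elf5 was at 0.202 in the LIF library and listed at 0 in the EB library. Wnt7b went the other way at 0.311 and 0.793 FPKM.

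Naive pluripotency genes were mostly higher in the EB library, with 3 of 17 members past 2-fold higher and 1 lower, and a median of 0.52. Klf2, a transcription factor that sustains naive cells, was at 39.7 and 36.2 FPKM in ES cells, 14.2 in the LIF library and 40.5 in the EB library (1.45), so the EB level stood close to ES cells. Tcl1, a coactivator of AKT, was instead highest in the EB library, at 3.56, 4.22, 5.66 and 14.9 FPKM. Tfcp2l1 (overlapping), a STAT3 target, was at 23.6 and 51.3 FPKM, and Gbx2 (overlapping), another one, at 33.7 and 15.4. Nanog was at 103 and 156 FPKM and Sox2 at 146 and 173. Of 17 general pluripotency members 0 were past 2-fold, with Pou5f1 (overlapping) at 455 and 461 FPKM.

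The LIF receptor and STAT3 target list was split as well, with 2 of 19 members past 2-fold higher (Socs3 and Tfcp2l1), 2 lower (Gbx2 and Mt2, both overlapping) and a median of -0.08. The metallothionein gene Mt2 was at 152 FPKM in the LIF library and 65.2 in the EB library. Socs3, the feedback inhibitor of the LIF receptor, was at 61.3 and 59.7 FPKM in ES 1 and ES 2, 17.8 in the LIF library and 38.4 in the EB library (1.07). Both derived libraries were below ES cells, the 2-day one further. Fos, a subunit of the AP-1 factor, had the same order at 17.1, 15.8, 1.52 and 7.31 FPKM (1.72), and so did Fosb at 5.71, 5.29, 0.294 and 1.95. No other gene of 21 immediate early members was past 2-fold, and Egr1, induced by the same stimuli, was at 11.2 and 14.4 FPKM. Fosl1 (overlapping) and Fosl2 went the other way, short of 2-fold on this scale, at 4.52 and 1.91, and 6.84 and 3.32 FPKM. The median of the immediate early list was 0.11. Among 19 FGF-ERK members the ETS factor Etv4 was lower (81.3 and 30.7 FPKM) and the receptor gene Fgfr2 (overlapping) higher (2.46 and 14.5).

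Matrix proteases and secreted proteins were higher in the EB library in part. Mmp3 (stromelysin 1) was at 0.319 and 0.419 FPKM in ES 1 and ES 2, 9.50 in the LIF library and 87.4 in the EB library (3.07), so both derived libraries stood above ES cells. Mmp9, a gelatinase, was at 0.331, 0.272, 2.01 and 15.8 FPKM in that order (2.48). Of 16 members 3 were past 2-fold higher, with Mmp12 (overlapping) the third, and 1 was lower: the inhibitor gene Timp3 (overlapping), at 18.95 and 5.49 FPKM. Mmp10 and Mmp13, at 11.8 and 21.7, and 3.74 and 8.21 FPKM, fell short. Spp1 (osteopontin) was at 108 and 111 FPKM in ES cells, 170 in the LIF library and 729.8 in the EB library (2.09). Trh, the precursor of thyrotropin-releasing hormone, was at 66.8, 63.6, 36.2 and 231 FPKM (2.64), and Zic2, a zinc finger factor of the epiblast and neural plate, at 6.35, 5.56, 3.59 and 18.3 (2.07).

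**Figure D3:**
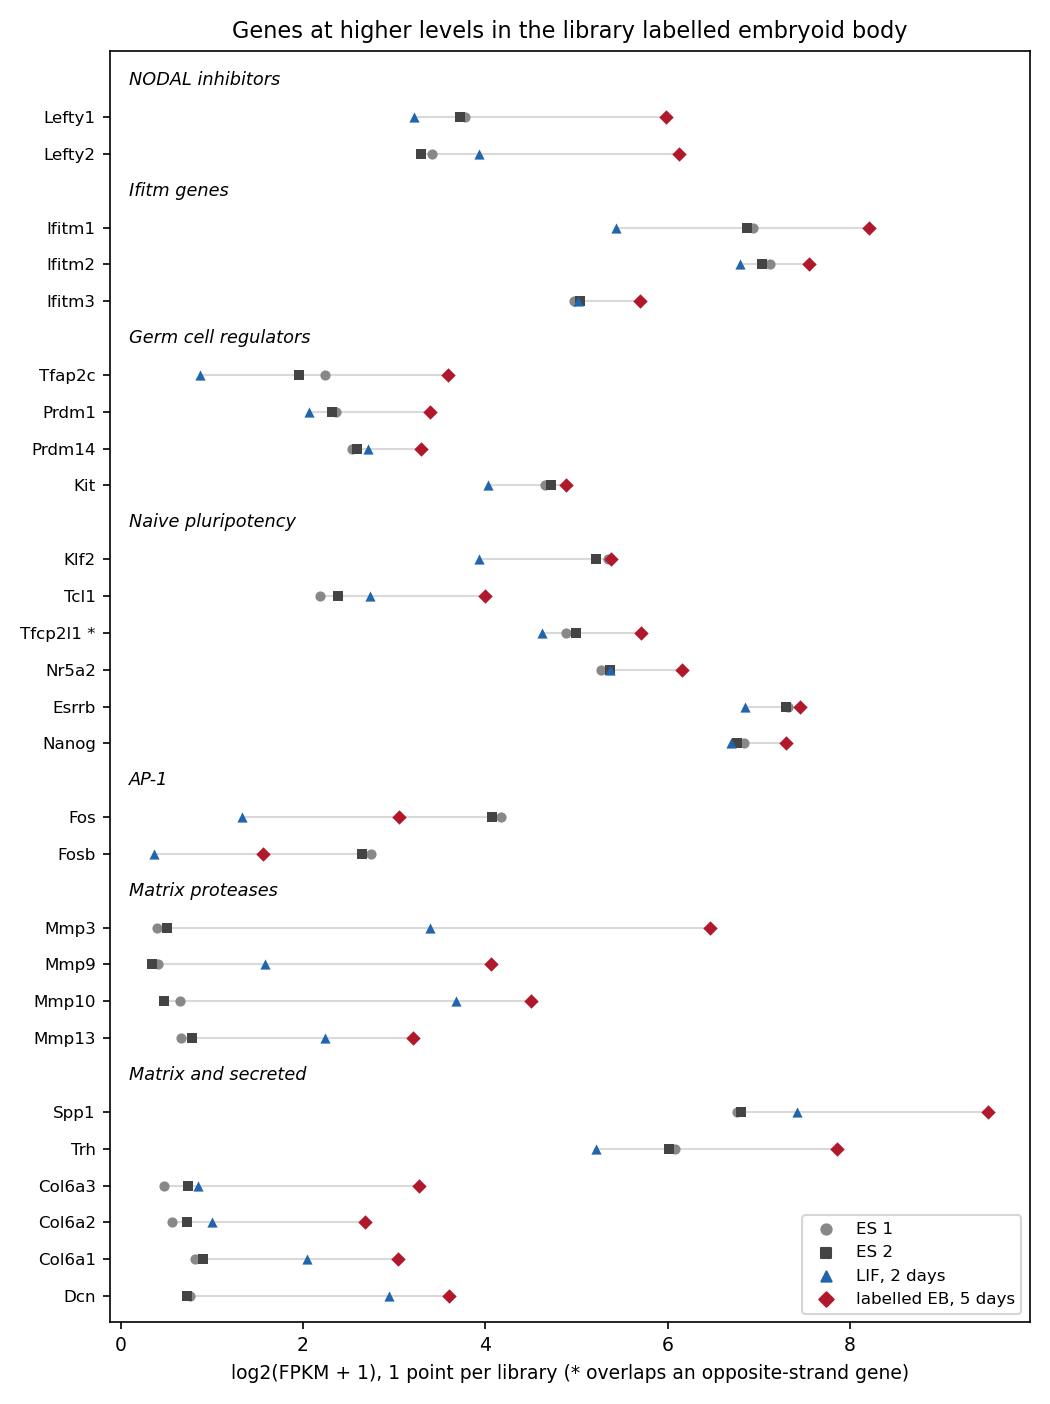
Levels of selected genes in the 4 libraries as log2(FPKM + 1), 1 point per library, grouped by role. The EB library (red) is the highest for Lefty1, Lefty2, Ifitm1 and Tfap2c. For Fos and Fosb it lies between the LIF library and ES cells, and for the matrix proteases the LIF library (blue) is the middle point.

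Genes of the germ layers mark a differentiating embryoid body. Of 22 streak and mesoderm genes 5 were members, and the highest value of the list was 3.72 FPKM (Eomes, overlapping, in the LIF library, against 1.26 in the EB library). T (brachyury) was at 0.558 and 0.127 FPKM, Mixl1 at 0.403 and 0.170, and Msgn1 was listed at 0 in all 4 libraries. Others under the filter were higher in the EB library, such as Mesp2 at 0.182 and 0.632 FPKM and Isl1 at 0.0682 and 0.415. Of 22 endoderm genes 9 were members, with 1 past 2-fold higher, the chemokine receptor gene Cxcr4 (0.265 and 1.98 FPKM), and 1 lower, the matrix gene Sparc (90.9 and 38.8). The endoderm regulators Sox17 and Gata6 (both overlapping) were at 0.613 and 0.347, and 0.630 and 0.213 FPKM. Foxa2, also under the filter, went the other way at 0.107 and 0.322 FPKM. Of 18 neuroectoderm genes 10 were members, 2 of them past 2-fold lower (Nes, at 6.49 and 2.11 FPKM, and Gbx2) and 0 higher. In the streak and mesoderm list no gene was past 2-fold higher in the EB library, and the library is called by its label only.

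**Figure D4:**
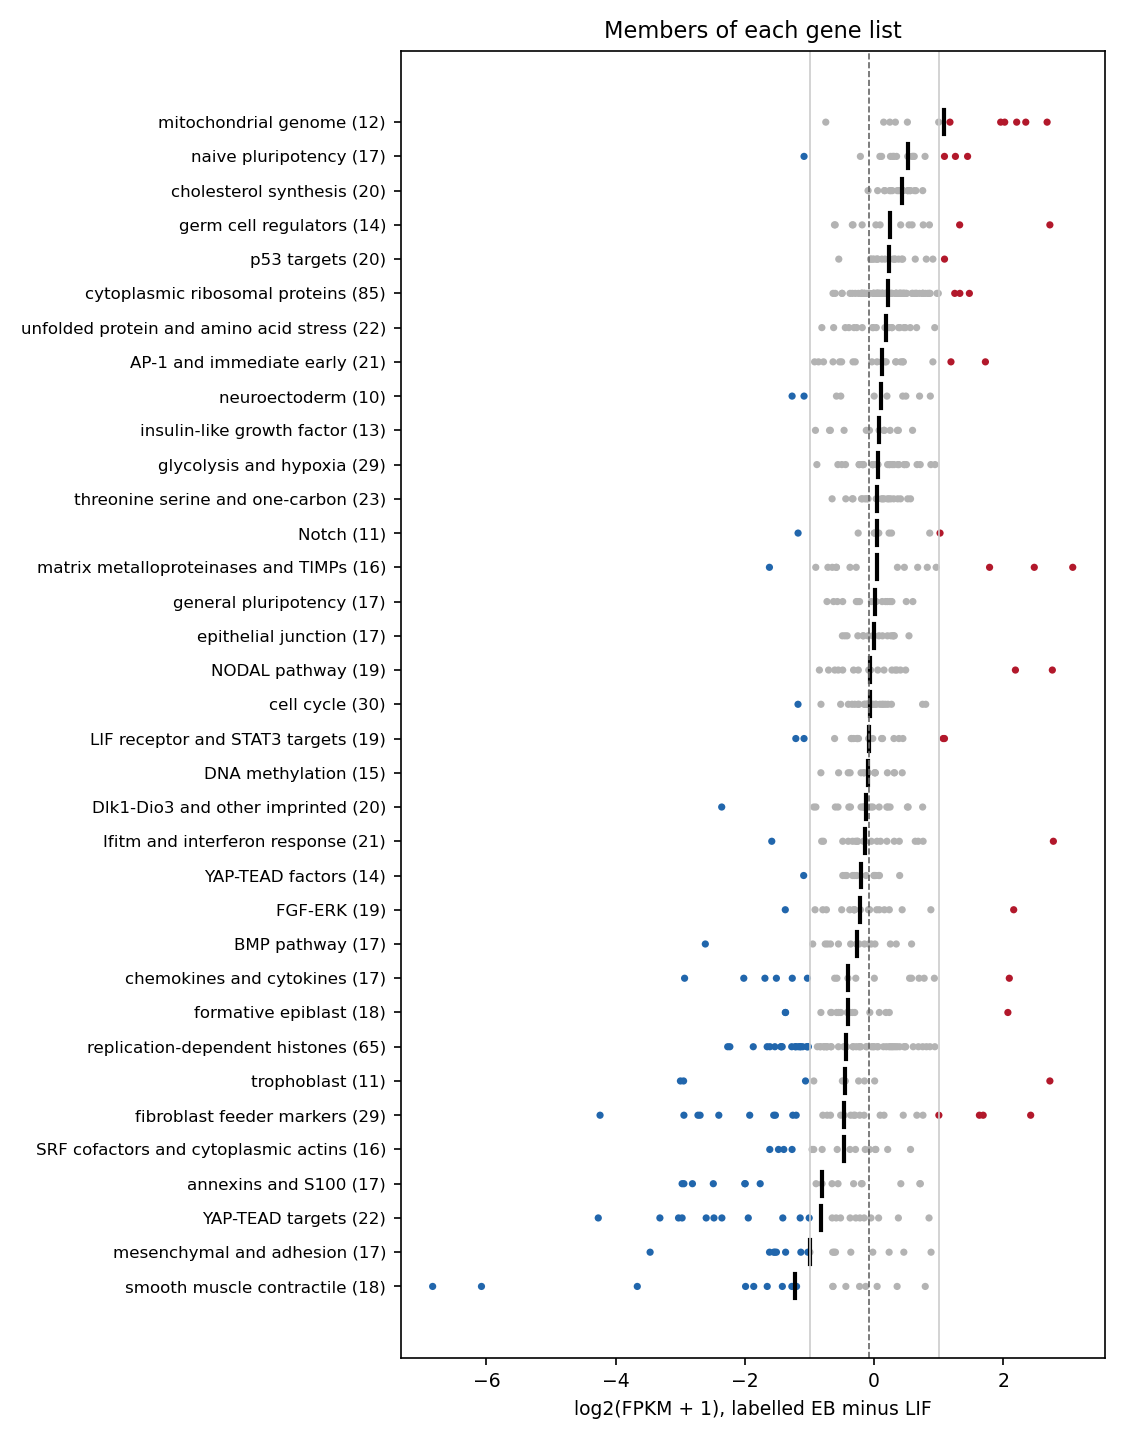
EB minus LIF differences on the log2(FPKM + 1) scale for the members of each list with at least 10 members, with the number of members in brackets. Black bars are list medians, the dashed line is the median of all members (-0.07), grey lines mark 2-fold, and points past it are red (higher) or blue (lower). Contractile genes have the lowest median (-1.22) and mitochondrial genes the highest (1.09).

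A set of mostly short genes separated ES 1 and EB from ES 2 and LIF. Of the 25 strand-separate members at least 2-fold higher in ES 1 than in ES 2, 19 have under 1000 nt of exons, against 233 of all 6738. Of the same 25, 15 were also past 2-fold higher in the EB library, and these are 15 of its 122. The mitochondrial gene mt-Atp8 was at 38.1 FPKM in ES 1 and 1.71 in ES 2, and at 3.82 in the LIF library and 23.5 in the EB library. mt-Nd4l (8.69, 1.12, 0.812 and 10.6 in ES 1, ES 2, LIF and EB), mt-Atp6 and mt-Co3 were split the same way, as were the ribosomal copies Rpl9-ps6 and Rps27rt (overlapping). Other mitochondrial genes were not: mt-Co1 (overlapping) was at 6188, 5941, 7990 and 8846 FPKM. For mt-Atp8 the 2 ES libraries were further apart than the derived ones, so such a gap also arose between like samples. Without members 2-fold apart between the ES libraries, a setting added after the data were seen, 107 strand-separate members were higher and 229 lower. The genes described above as higher in the EB library were all less than 2-fold apart between the ES libraries, Ifitm1 for one at 121 and 116 FPKM.

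Members overlapping an opposite-strand gene were more often lower in the EB library. Of 5473, 373 were past 2-fold lower (6.82%) and 47 higher (0.859%). The share lower was 6.87% of 1587 members that overlap the other gene's body but none of its exons. It was 4.11% of 2481 members with above 0 and up to 10% of their exon length under opposite-strand exons, 9.57% of 1275 with above 10% to 50%, and 30.8% of 130 with more. Of 61 members above 0 in the LIF library alone, 43 were overlapping, while 2 were above 0 in the EB library alone. Slc24a5, which encodes an ion exchanger of pigment cells, was at 50.6 FPKM in the LIF library and 0.162 in the EB library, and listed at 0 in both ES libraries. It lies opposite Myef2, at 73.7 to 81.1 FPKM in the 4 libraries. Cd247, a T-cell receptor chain gene opposite Pou2f1, was at 44.3 and 0.0586 FPKM. Rpgrip1, opposite Supt16, was at 42.9 and 0.749, and Acat3, opposite Tcp1, at 23.5 and 0.228. The partners were less than 2-fold apart across the 4 libraries, Pou2f1 at 32.5 to 39.6 FPKM for one, while the overlapping member was high in the LIF library alone. Use of strand in the authors' counting is not given in the labels, so the LIF levels of such genes are uncertain and are not read as expression. Thbs1 and Cd44 differ from them: their opposite genes Gm29233 and Gm23731 were listed at 0 in all 4 libraries. The gene opposite Lox was not matched, so its level is not known. Among overlapping members that were higher, Sox21, a neural factor, was at 1.09 and 7.22 FPKM, Slc15a2, a peptide transporter gene, at 2.50 and 8.70, and Fabp3, a fatty acid carrier gene, at 5.27 and 14.8.

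**Figure D5:**
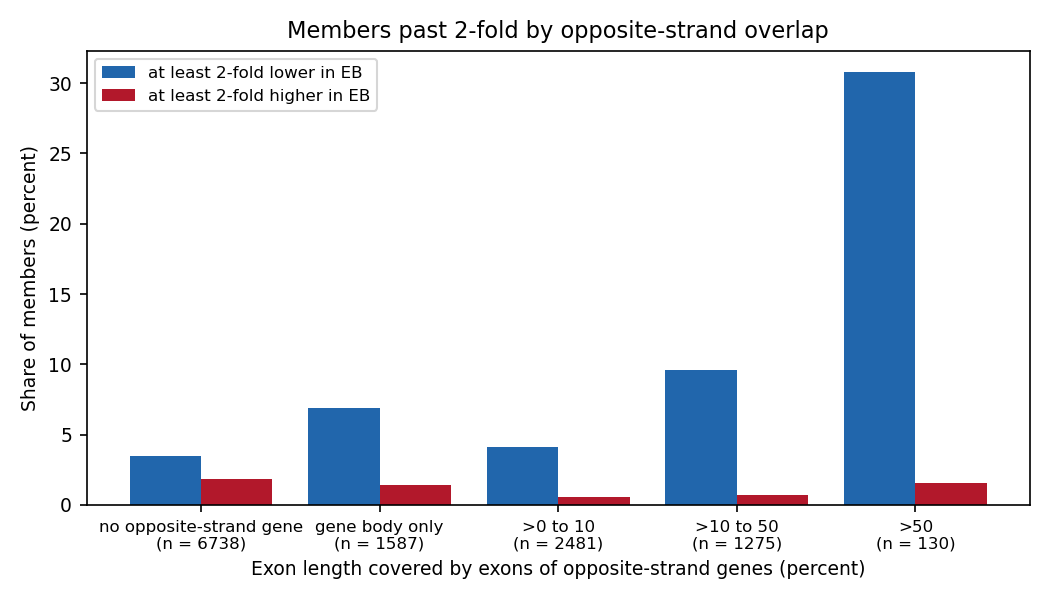
Share of members at least 2-fold lower (blue) and higher (red) in the EB library, by the share of their exon length that exons of opposite-strand genes cover, with the number of members under each pair of bars. The share lower is 3.5% of members with no opposite-strand gene, 6.87% with overlap of the gene body only, 4.11% in the next bin and 30.8% of those with more than 50% covered, while the share higher stays between 0.564% and 1.81%.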

How the data were processed

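FPKM per gene and library were deposited by the authors in a single table. The submitters' processing notes name mm10, Cufflinks, STAR and Trimmomatic 0.36. Options, strand setting and annotation release were not given in the sources used here. Identifiers were matched without version to GENCODE mouse release 21 on mm10 (47219 of 47633, with 414 unmatched), which gave gene types, exon lengths and opposite-strand overlaps though the authors may have used another release. Depth was estimated from genes with 1 transcript and 3000 nt or more: FPKM multiplied by exon length was binned at 0.05 on the log2 scale, and the fullest low bin was taken as 1 fragment.

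Differences are log2(FPKM + 1), EB minus LIF, without a test. Named genes were the 12 largest and 12 smallest strand-separate differences at 5 FPKM or more, predicted names left out, 5 each way among overlapping members, and up to 4 members past 2-fold per list (the 2 most abundant where none was). Some genes that this rule took are not reported here. Other list members were named after values were seen, and the choice of members and of the 41 lists was made with earlier results of these data known. Promoters came from RefSeq. The counting was tested on simulated data. Python 3.11.15, numpy 2.4.6, pandas 2.3.3 and matplotlib 3.10.9 were used.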

Additional observations from a re-analysis of the deposited data

Results flagged for a closer look

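Outside the protein-coding genes, 2 non-coding genes were high in the LIF library and absent or near 0 elsewhere. FPKM is scaled to gene length, so their shares of the FPKM sum are not shares of the fragments. The small nuclear RNA gene Gm26465 was listed at 326022 FPKM in the LIF library, 37.7% of its FPKM sum, and at 0 in ES 1, ES 2 and the EB library. The ribosomal RNA gene CT010467.1 was at 15634 FPKM in the LIF library, 1.81% of the sum, against 0 in ES 1, 0.477 in ES 2 and 0.278 in the EB library. Neither enters the member counts, and their part in any difference was not tested.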

How the results depend on the processing

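No paired analysis was possible because each derived group has 1 library. Against 169 members higher and 609 lower, a pseudocount of 0.1 gave 384 and 947, and against 122 and 236 among strand-separate members it gave 249 and 402; 305 of these then had both ES libraries nearer EB and 236 nearer LIF. A pseudocount of 0.5 gave 269 members higher. A filter of 5 FPKM left 100 higher and 321 lower, and 71 and 132 strand-separate, because fewer genes entered. Other settings (scaling by median ratios or by the protein-coding sum, exon overlap only, exons of at least 1000 nt) stayed within 1.5 times of each count. Leaving out the filter gave the same counts by construction. With a pseudocount of 1, a gene under 1 FPKM in both libraries cannot reach 2-fold. Median-ratio scaling took the lower share of strand-separate members past 2-fold from 65.9% to 58.5%. With both ES libraries 177 strand-separate members past 2-fold had ES nearer EB and 124 nearer LIF; leaving out either ES library gave 190 to 221 and 137 to 168. Of 95 named genes past 2-fold, 92 stayed past it under median-ratio scaling. All 95 kept their direction under that scaling and the pseudocount of 0.1, which was fixed in advance. A pseudocount cannot change the sign of a difference, and the scaling moved the named differences by at most 0.0747. For genes under about 1 FPKM in the LIF library, the shallower one, the number of fragments depends on gene length. It was about 55.5 for Tfap2c at 0.836 FPKM and 4.36 for the short mt-Nd4l at 0.812 FPKM.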

Other observations

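Of 65 members among replication-dependent histone genes, which are made in S phase, 19 were past 2-fold lower in the EB library and 0 higher, with 11 of 43 lower among strand-separate ones. Hist1h3d was at 328 FPKM in the LIF library and 120 in the EB library, against 199 and 201 in ES 1 and ES 2, and Hist1h4c at 91.6 and 176 in the other direction. Cell cycle genes did not accompany them: 1 of 30 members was past 2-fold, the cyclin gene Ccnd2 (overlapping), at 31.2 and 13.2 FPKM. Near-identical histone copies and their short exons make single values uncertain.

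Of 85 cytoplasmic ribosomal protein members 3 were past 2-fold higher in the EB library and 0 lower. Rps16 was at 354 FPKM in the LIF library and 841 in the EB library, against 808 and 823 in ES cells, while Rpl24 was at 142 and 395 with ES 1 and ES 2 themselves apart at 291 and 145. Cholesterol synthesis genes gave 0 past 2-fold among 20 members but a median of 0.43, the range being -0.09 (Sc5d) to 0.75 (Insig1, at 19.2 and 33.04 FPKM). Among 20 p53 target members, Trp53inp1 was the 1 past 2-fold, at 70.3 and 151 FPKM. Glycolysis and hypoxia genes gave 0 of 29, and DNA methylation genes 0 of 15.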
